A study of Drosophila melanogaster with 46 samples.

Results

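Binding of PSC, one of the core proteins of Polycomb repressive complex 1 (PRC1), was profiled by ChIP-seq in eye discs with 2 replicates. The peaks described are those on the 6 chromosome arms (X, 2L, 2R, 3L, 3R and 4) in 3 deposited lists: 5471 of 5475 peaks in replicate 1, 3215 of 3216 in replicate 2 and 5999 of 6004 in a merged list. They came from a series of 46 samples, whose 6 peak lists for PSC and the PRC2 subunit Su(z)12 held 19547 peaks in all. Discs were from wandering third-instar larvae of the strain given as W1118 Oregon-R, with about 500 discs per replicate, and the antibody was a rabbit polyclonal against PSC. Su(z)12 binding came from 2 replicates of the same strain, stage and number of discs. Expression came from 2 tables of the authors, for eye discs of wandering larvae with the labelled genotype Mutant_PcXT109_FRT2A (2 replicates), and for discs under ph RNA interference (4 replicates), whose labelled control was RNA interference against white (4 replicates). The control of the Pc mutant, and whether every cell of those discs was mutant, were not given in the sources used here. Whether replicates were separate pools of animals is not labelled, and frozen batches of discs could be joined into 1 replicate, so their spread may be technical. Peak lists hold no read counts, so the depth behind each is unknown and no value has an interval for sequencing depth.

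PRC1 binds chromatin around genes that control development and keeps many of them silent. In flies it is recruited through Polycomb response elements, from which it can spread over domains carrying the histone mark that PRC2 deposits, and PRC1 is also found at active genes without such a domain. The eye disc is the epithelial sheet of the larva that forms the adult eye and antenna. In it most Hox genes and many genes of other body parts are normally off, while the retinal determination genes are on. The tissue label was read against the authors' deposited table for ph: all 12 retinal determination genes were listed, with a median mean normalized count of 2936. In the authors' deposited table for ph the haemocyte list had a median of 977, the trachea list 788, the muscle list 500, the glia list 468, the fat body list 137, the salivary gland and gut list 52.8 and the germline list 47.7. The highest gene of the muscle list had 26767 and that of the retinal determination list 8306 in the authors' deposited table for ph. These counts are not per length, and they are not from the ChIP samples.

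The strongest PSC peaks were shared by both replicates, and most weak peaks of the longer list, that of replicate 1, were not found in replicate 2. Of the peaks of replicate 2, 86.3% (2774 of 3215, 95% Wilson interval 85.1 to 87.4, counting error only) shared at least 1 bp with a peak of replicate 1. Of the peaks of replicate 1, 48.3% (2643 of 5471, interval 47.0 to 49.6) shared at least 1 bp with a peak of replicate 2. With the same number of strongest peaks taken from each list, these shares were 72.7% and 68.1%. Ranked by the authors' −log10 q value, 547 of the 548 strongest peaks of replicate 1 were found in replicate 2 (99.8%). The list of replicate 1 was cut into 10 bins of equal size by that value, and the share was 58.1% in bin 4, 35.8% in bin 6 and 10.8% in the weakest bin. All 322 peaks of the strongest bin of replicate 2 were found in replicate 1, and in no bin of replicate 2 was the share below 76.6%. Peak folds, which like the scores are the authors' own and were compared by rank only, had a Spearman rho of 0.58 across the 2643 peaks of replicate 1 with a partner in replicate 2. Peaks are not replicates, so this is a description.

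**Figure D1:**
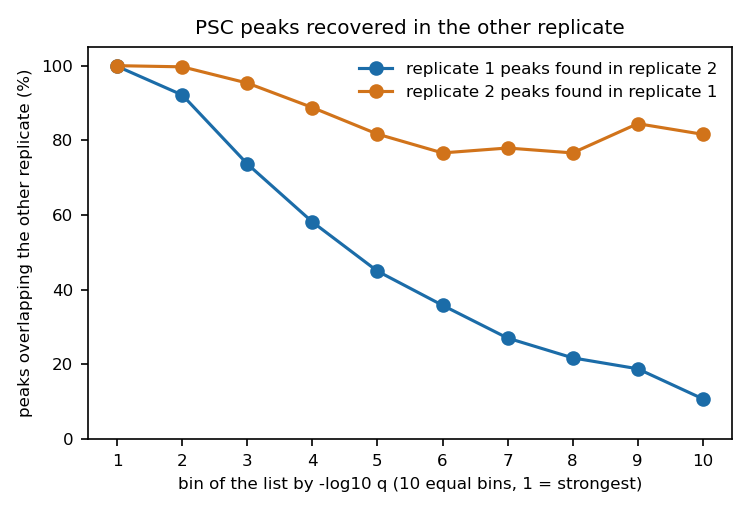
Share of peaks (%) of each PSC replicate that overlapped a peak of the other by at least 1 bp, in 10 bins of equal size ranked by −log10 q, with bin 1 the strongest. The line of replicate 1 falls from 99.8% to 10.8%, while no bin of replicate 2 lies below 76.6%.

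In the merged list, 2589 peaks (43.2%) had a peak of both replicates under them, 2092 (34.9%) of replicate 1 alone, 398 (6.63%) of replicate 2 alone and 920 (15.3%) of neither. These classes lay at different places. The median peak with both replicates was 465 bp wide with a fold of 2.40, and 42.0% of such peaks overlapped a Su(z)12 peak. The median peak with replicate 1 alone was 290.5 bp wide with a fold of 1.75, and 10.3% of such peaks overlapped Su(z)12. The summits of the latter lay inside an annotated gene in 62.0% of cases, against 44.1% for the peaks with both replicates. Peaks with replicate 2 alone had a median width of 252 bp, and 85.2% of their summits were within 1000 bp of a gene end, inside or outside the gene, against 47.1% for replicate 1 alone. In the whole lists the summits inside genes were 56.4% in replicate 1, 42.3% in replicate 2 and 51.2% in the merged list. Summits outside genes and over 1000 bp from any gene end were 16.4%, 14.4% and 16.4%. The replicate that gave more peaks thus also gave more peaks inside genes. Whether sequencing depth moved with this difference was not tested.

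The typical PSC peak was narrow, and a small number of broad domains held a larger share of the bound sequence than of the peaks. The median width was 335 bp in replicate 1, 314 bp in replicate 2 and 327 bp in the merged list, and the smallest width in each was 200 bp. Covered length was 2.61 Mb, 1.42 Mb and 2.81 Mb. Peaks over 1 kb made up 7.71%, 7.06% and 7.22% of the lists, yet held 27.1%, 24.7% and 26.5% of the covered length. Merged peaks of 200 to 299 bp held 22.1% of the covered length and those of 300 to 499 bp 26.6%. Width went with support by the replicates and by Su(z)12. Of the 2555 merged peaks of 200 to 299 bp, 14.4% had both replicates and 14.0% overlapped Su(z)12. Of the 339 peaks of 1000 to 1999 bp, 96.2% had both replicates and 57.5% overlapped Su(z)12. All 97 peaks of 2000 bp or more, 1.62% of peaks and 10.4% of the covered length, had both replicates, and 93.8% overlapped Su(z)12. A wider peak has more bp in which to meet another peak, so part of this trend is built into the measure.

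**Figure D2:**
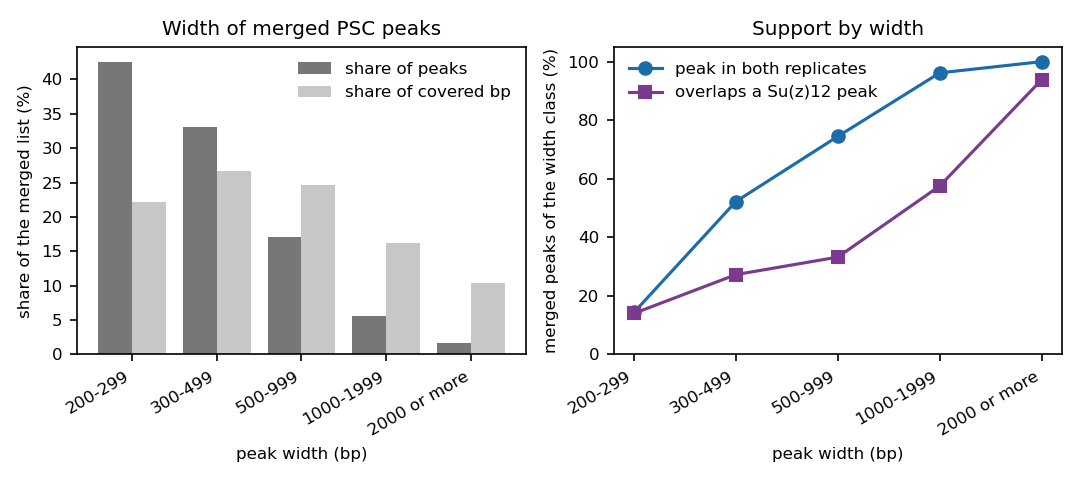
Left, share (%) of merged PSC peaks and of their covered bp by peak width class; right, share (%) of each class with a peak in both replicates (circles) or a Su(z)12 peak (squares). Peaks of 200 to 299 bp are 42.6% of the list with 14.4% in both replicates, and peaks of 2000 bp or more are 1.62% with 100%.

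Among the 10 widest merged peaks were domains at 3 PRC1 genes. The widest, X:2133749-2142114 (dm6, 8366 bp), overlapped ph-p, which encodes the Polyhomeotic subunit of PRC1, and its neighbour D2hgdh. Within this domain 1 peak of replicate 1 covered all 8366 bp, and 2 peaks of replicate 2 covered 7720 bp. Psc itself had a peak of 4989 bp (2R:12977025-12982013), and one of 4603 bp (2R:12993565-12998167) overlapped Su(z)2, which encodes a relative of PSC. The other domains lay mostly at transcription factor genes: 6565 bp at drm, a zinc finger gene of the odd-skipped family, 5984 bp at zfh2, 5369 bp at ey, the Pax6 gene of retinal determination, and 4653 bp at the T-box gene Doc3 and CG5194. A domain of 6562 bp at 2L:5042-11603 overlapped l(2)gl, a cell polarity gene at the tip of the arm. The last 2 domains overlapped no protein-coding gene: 6157 bp with its summit 2441 bp from CG13323, and 4705 bp with its summit 29639 bp from tsh, a zinc finger gene of eye and trunk identity. All 10 had both replicates, and 9 overlapped Su(z)12. The exception was the peak at ey, where replicate 1 covered 5237 bp and replicate 2 4897 bp. Outside this peak, 4 Su(z)12 peaks covering 1293 bp did lie in the ey gene or within 1000 bp of it.

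The 10 peaks of largest fold were a different set, since 2 were among the 10 widest. All 10 had both replicates, 9 overlapped Su(z)12, and 9 had their summit outside every annotated gene. The peak without Su(z)12, at 2R:19725465-19726409, was 945 bp wide with its summit 10979 bp from CG8517, and its fold was 7.94 in replicate 1 and 6.56 in replicate 2. The largest fold, 4.89, was that of a peak of 2052 bp at Map205. Next came peaks with summits 8358 bp from abd-A and 3739 bp from Scr. They were followed by the domain at ph-p and D2hgdh and a peak 811 bp from Neu2. After these leading 5 they included CG1888 (401 bp wide), CG12769 (1342 bp) and the domain at l(2)gl. A peak of 743 bp lay in the bithorax region, 2014 bp from CG31275.

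Part of the PSC peaks lay close together in clusters. Merged peaks were chained where the gap between neighbours was at most 5000 bp, and a chain of at least 5 peaks was called a cluster. There were 203 clusters, with a median of 7 peaks over 11.2 kb, and 52 had at least 10 peaks. They held 1825 peaks, 30.4% of the merged list and 41.2% of its covered length. At the other extreme, 1903 peaks (31.7%) had no neighbour within that gap. Replicate 1 alone gave 191 clusters and the shorter list of replicate 2 gave 63, so the number depends on the density of the list. All 203 merged clusters contained a peak of replicate 1, 195 contained one of replicate 2, and 72 contained at least 5 of each. Su(z)12 peaks lay in 138 clusters and in none of the other 65. The 4 clusters of most peaks without Su(z)12 lay at dsx (13 peaks), hth (12), the E(spl) complex (12) and noc (11). A second cluster at dsx, of 5 peaks, did hold 4 Su(z)12 peaks covering 1654 bp.

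The cluster of most peaks spanned Psc and Su(z)2 (2R:12942597-13043514), the genes of a PRC1 subunit and its relative. It held 53 merged peaks over 100.9 kb, and 75.1% of that span lay under a peak. Replicate 1 had 48 peaks there covering 77764 bp, and replicate 2 had 60 peaks covering 55669 bp. The 63 Su(z)12 peaks in it covered 31857 bp. Peaks ran through the Psc gene, the interval between both genes and a stretch beyond Su(z)2 that held no annotated coding gene. The gene Mdr49 and the genes CG44251, CG44250, CG13321 and CG33798 also lay in the span.

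**Figure D3:**
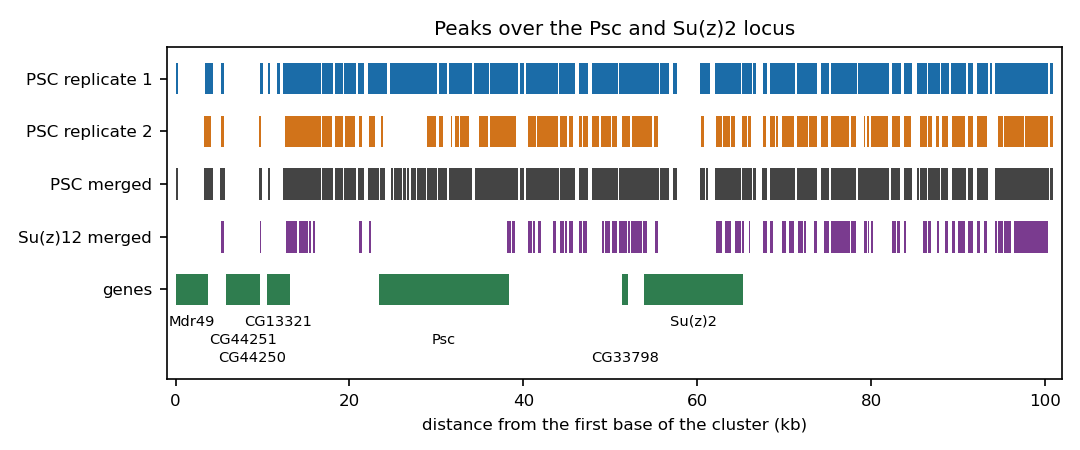
PSC peaks of replicate 1, replicate 2 and the merged list, merged Su(z)12 peaks and protein-coding genes over the cluster at Psc and Su(z)2, by distance in kb from the first base of the cluster. PSC peaks of both replicates fill most of the span, 77764 bp and 55669 bp of 100.9 kb, including the stretch past Su(z)2, while Su(z)12 peaks are few over the Psc gene.

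The next clusters of most peaks each held a gene of a homeodomain, T-box, forkhead or zinc finger transcription factor. The homeobox genes lbl and lbe had 35 merged peaks over 39.0 kb (31 peaks in replicate 1 and 13 in replicate 2). The T-box genes Doc1, Doc2 and Doc3 had 32 (28 and 24), and the T-box genes H15 and mid had 29 (23 and 17). The forkhead genes slp1 and slp2 had 31 (27 and 17). The head homeobox gene oc had 28 (26 and 15), and inv, the paralogue of engrailed, shared 24 (26 and 20) with E(Pc). The cluster of Asator and zfh2 had 23 (21 and 8), and 4 clusters tied at 21, those of tsh (21 and 13), bi (16 and 10), the odd-skipped family genes sob and odd (18 and 6), and the forkhead genes fd96Ca and fd96Cb (20 and 15). Every one of these clusters contained peaks of both replicates and of Su(z)12, with fewer peaks in replicate 2 than in replicate 1. The cluster at Psc and Su(z)2 was the exception to that order, with more peaks in replicate 2 over fewer bp.

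**Figure D4:**
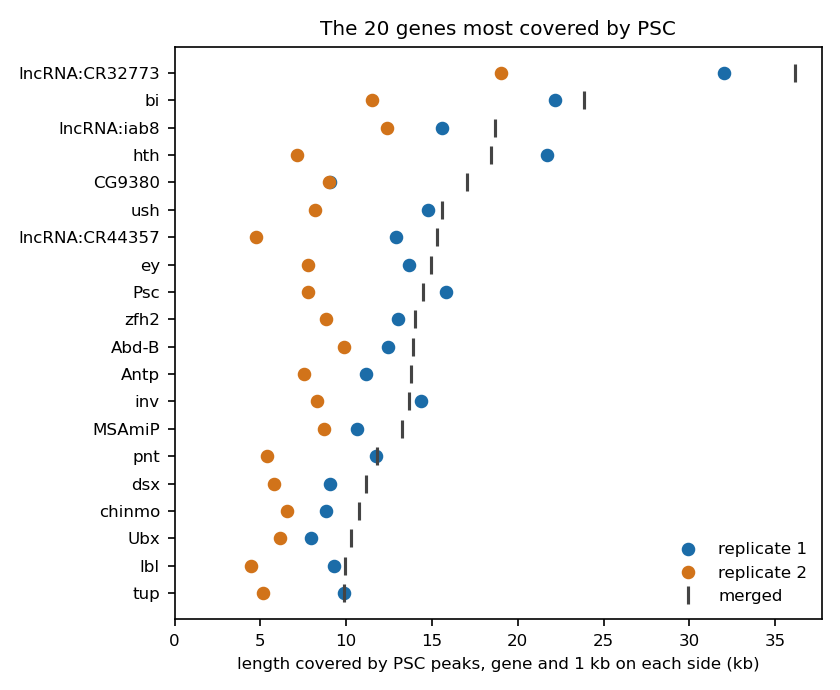
Length (kb) covered by PSC peaks in each of the 20 most covered genes and the 1 kb on each side, in replicate 1, replicate 2 and the merged list. Replicate 2 lies below replicate 1 at every gene, and the values of CG9380 nearly coincide (9077 bp and 8996 bp).

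For single genes, bound length was counted in the gene and the 1000 bp on each side, so overlapping genes share peaks. The most covered coding gene was bi, whose T-box protein patterns wing and eye, with 23845 bp under 32 merged peaks, 22175 bp in replicate 1 and 11535 bp in replicate 2. The gene lncRNA:CR32773 runs over bi and ranked first with 36144 bp. Next among coding genes was hth, a homeobox gene of antennal and head identity, with 18441 bp under 32 peaks. Its coverage was 21683 bp in replicate 1 and 7162 bp in replicate 2, and no Su(z)12 peak lay in its window. CG9380, the last gene on 2R, had 17041 bp, of which 1557 bp lay in the window of Kr, a gene inside it. The Friend-of-GATA gene ush had 15599 bp. Long genes can gather more peaks, and the share of the window covered gives another order among these 20 genes: 85.0% at Psc (14453 bp), 58.7% at ey (14969 bp), 41.5% at the LIM homeobox gene tup, 38.1% at lbl and 36.6% at inv, against 31.9% at bi and 13.8% at hth. Outside the 20 genes, short genes reached such shares too, with 95.4% at Doc3, 83.1% at Doc1 and 68.6% at Su(z)2. The 20 most covered genes also held zfh2 (14005 bp), the ETS gene pnt (11802 bp), the sex determination gene dsx (11149 bp), chinmo (10751 bp), and lncRNA:CR44357 (15276 bp). In the bithorax region lncRNA:iab8 had 18669 bp, of which MSAmiP, which overlaps it, shared 13255 bp.

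The ranking held across replicates at its top and less so below. Of the 20 most covered coding genes of replicate 1, 17 were among the 20 of replicate 2. Of the 182 coding genes with at least 2000 bp covered in the merged list, 181 had a peak in each replicate and 146 overlapped a Su(z)12 peak. All 48 genes with at least 5000 bp had a peak in each replicate, and the 4 of them without Su(z)12 were hth, the cadherin gene ds, the BMP ligand gene dpp and sbb. Among the genes with at least 2000 bp, those without Su(z)12 in the gene or within 1000 bp also included mirr, toe, dan, eya, disco and ph-d. Others of these were jing, spen, Xrp1 and Tdg. The PSC clusters at toe and mirr, which reach past those windows, each held 1 Su(z)12 peak, of 423 bp and 290 bp. Across the 4013 coding genes with a peak in either replicate, covered length had a Spearman rho of 0.44 between replicates, as a description across genes.

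A merged peak lay in or within 1000 bp of 30.3% of all protein-coding genes (4218 of 13922). The share was 24.9% in replicate 1, 20.9% in replicate 2 and 16.9% with a peak in each replicate. These are the backgrounds for the gene classes. Bound genes were longer than the rest, with 13.3% bound among genes under 1 kb and 65.3% among genes of 20 kb or more, so median lengths are given beside the classes. The median length of all coding genes was 2.16 kb. The classes were listed with earlier results of these data known and were not tested.

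Hox genes were bound in full and Polycomb genes in part. All 8 Hox genes, which set segment identity, had peaks in each replicate and in Su(z)12 (median length 30.6 kb). Abd-B had 12443 bp in replicate 1 and 9896 bp in replicate 2. Ubx had 7956 bp and 6151 bp, and abd-A had 3302 bp and 2942 bp. In the Antennapedia complex Antp had 11171 bp and 7528 bp, Scr 4253 bp and 3599 bp, pb 3790 bp and 3125 bp, lab 3765 bp and 1345 bp, and Dfd 2699 bp and 1373 bp. Every Hox gene was covered less in replicate 2, whose whole list also covered less. Of the 7 PRC1 genes (median length 11.4 kb) 6 had a merged peak and 5 had one in each replicate. Psc, Su(z)2, ph-p and ph-d carried between 1898 bp and 15844 bp in each replicate. Pc, the chromodomain subunit, had 302 bp and 262 bp, Sce, the RING ubiquitin ligase, had 233 bp in replicate 2 alone, and Scm had no peak. Genes of PRC2 and PhoRC, the complexes that methylate histone H3 and bind DNA, had 7 of 11 with a merged peak and 4 in each replicate (median length 4.565 kb). The most covered of them was jing with 4799 bp. E(z), the methyltransferase gene, had no peak in any of the 3 lists.

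Genes that make the eye, and genes of other appendages, were mostly bound in both replicates. All 12 retinal determination genes had a peak in each replicate (median length 10.7 kb, median merged coverage 3138 bp). They ranged from ey, with 13646 bp and 7757 bp, through dac (4626 bp and 2336 bp), so (4031 bp and 2026 bp) and eya (2857 bp and 1245 bp), to danr, with 967 bp and 816 bp. The dorsal eye selectors pnr (8186 bp and 4511 bp), ara (7056 bp and 3904 bp), caup (5198 bp and 2268 bp) and mirr (3569 bp and 1447 bp) were bound in each replicate. Of 13 wing genes (median length 15.2 kb) 12 had a peak in each replicate, among them nub (7590 bp and 6045 bp) and vg (4596 bp and 3407 bp), and brk had one in replicate 1 alone. Of 15 antenna and leg genes (20.8 kb) 13 had a peak in each replicate, among them Lim1 (6021 bp and 3412 bp). Of 21 photoreceptor genes (14.0 kb) 15 had a peak in each replicate, led by pnt, the Pax gene sv, oc and ct. All 7 genes of the NK homeobox list (8.52 kb), 7 of 8 T-box genes (6.97 kb), 6 of 8 Sox genes (8.70 kb) and 8 of 10 pair-rule genes (2.68 kb) had peaks in each replicate. The NK genes tin, bap, lbl, lbe, C15 and slou are close together on 3R, and bap had only 139 bp and 134 bp. The T-box genes bi, Doc1, Doc2 and Doc3 are also in the wing list. The members of these lists are therefore not independent sites.

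Some signalling classes were bound in replicate 1 and not, or less, in replicate 2. The E(spl) complex, a row of Notch target genes on 3R, had 8 of 11 genes with a peak in replicate 1, 7 in the merged list and 0 in replicate 2. Over the 45.4 kb of the complex replicate 1 had 20 peaks covering 8881 bp with a largest fold of 2.60, against a median of 2.25 for its whole list. The merged list had 15 peaks there, and their largest fold of 1.90 was below the median of 1.97 for that list. Replicate 2 and the merged Su(z)12 list had 0 peaks there. When replicate 1 was reduced to its 3215 strongest peaks, as many as replicate 2 has, 7 of the 11 genes were still bound. These genes are neighbours of about 1 kb each, so they are 1 locus and not 11 independent sites. All 14 EGFR pathway genes had a peak in replicate 1 and 8 in replicate 2 (median length 15.0 kb). The repressor gene aop had 1311 bp in replicate 1 and no peak in replicate 2, while Egfr itself had 1286 bp and 735 bp. Ecdysone response genes (median length 60.7 kb) had 10 and 5 of 11: EcR had 4618 bp and 1730 bp, Eip74EF 5418 bp and 570 bp, and Eip78C 1691 bp and 0 bp. Axon guidance genes (40.2 kb) had 11 and 6 of 13. The shares over all coding genes were 24.9% in replicate 1 and 20.9% in replicate 2, but these 2 lists hold long genes. A peak in each replicate was found at 5 of 11 ecdysone and 6 of 13 axon guidance genes. Among all coding genes of 20 kb or more that share was 43.7%, so both lists lay near it. With the 3215 strongest peaks of replicate 1, the EGFR list had 12 genes, the ecdysone list 8 and the axon guidance list 10, still more than in replicate 2. Over all coding genes, those peaks bound 2575 genes and the peaks of replicate 2 bound 2905. Cell cycle genes (2.92 kb) had 12 and 8 of 22, but 6 with the strongest peaks of replicate 1, so the order of the replicates turned. Among them E2f1 had 2795 bp in replicate 1 and 0 bp in replicate 2. The Notch core pathway (22.9 kb) had 7 and 8 of 10, and 6 with the strongest peaks of replicate 1. Whether the replicates differ at these classes was not tested, since each replicate is a single sample.

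Ribosomal protein genes were a class of short genes with small peaks. Of the 93 cytoplasmic ribosomal protein genes 63 had a peak in replicate 1, 56 in replicate 2 and 54 in each, with a median length of 1.32 kb and a median coverage of 287 bp. In the length class of 1 to 2 kb 39 of 52 had a merged peak, where the share over all genes was 20.7%, and below 1 kb 16 of 25 had one, where it was 13.3%. RpS15Aa had 894 bp in replicate 1 and 607 bp in replicate 2, and RpL12 and RpL39, which are adjacent and share peaks, had 815 bp and 794 bp, and 798 bp and 737 bp. Of the 73 mitochondrial ribosomal protein genes (median length 0.909 kb) 24 had a merged peak and 12 had one in each replicate, where genes under 1 kb had 13.3% and 6.09%. Heat shock protein genes (2.35 kb) had 14 of 25 in the merged list, among them Hsc70-4 with 1431 bp and 1435 bp. In the authors' deposited table for Pc, genes bound in each replicate had a median mean normalized count of 1669, genes bound in replicate 1 alone 1396, genes bound in replicate 2 alone 1230 and genes bound in neither 125. Median gene lengths of the first 3 classes were 5.12, 5.22 and 2.899 kb. Read counts per gene grow with length, and the part of transcription level in the peaks at these genes was not tested.

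The lowest shares were those of the salivary gland and gut, receptor, cuticle and cytochrome P450 lists. Merged peaks were found at 7 of 120 cuticle protein genes, 10 of 179 olfactory and gustatory receptor genes, 11 of 85 cytochrome P450 genes and 0 of 10 salivary gland and gut genes. Median lengths of these lists were 0.97, 1.69, 2.102 and 0.852 kb, in that order. The dpr, DIP, beat and side recognition genes had 9 of 54 despite a median length of 36.2 kb. Among markers of other cell types, 4 of 5 trachea genes (80%) and 5 of 8 glia genes (62.5%) had a merged peak. So did 4 of 12 haemocyte genes (33.3%), 5 of 15 muscle genes (33.3%) and 2 of 7 fat body genes (28.6%). The share over all coding genes was 30.3%, so these last lists lay near the background. With a peak in each replicate the numbers were 3, 2, 4, 0 and 2, where the share over all coding genes was 16.9%.

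**Figure D5:**
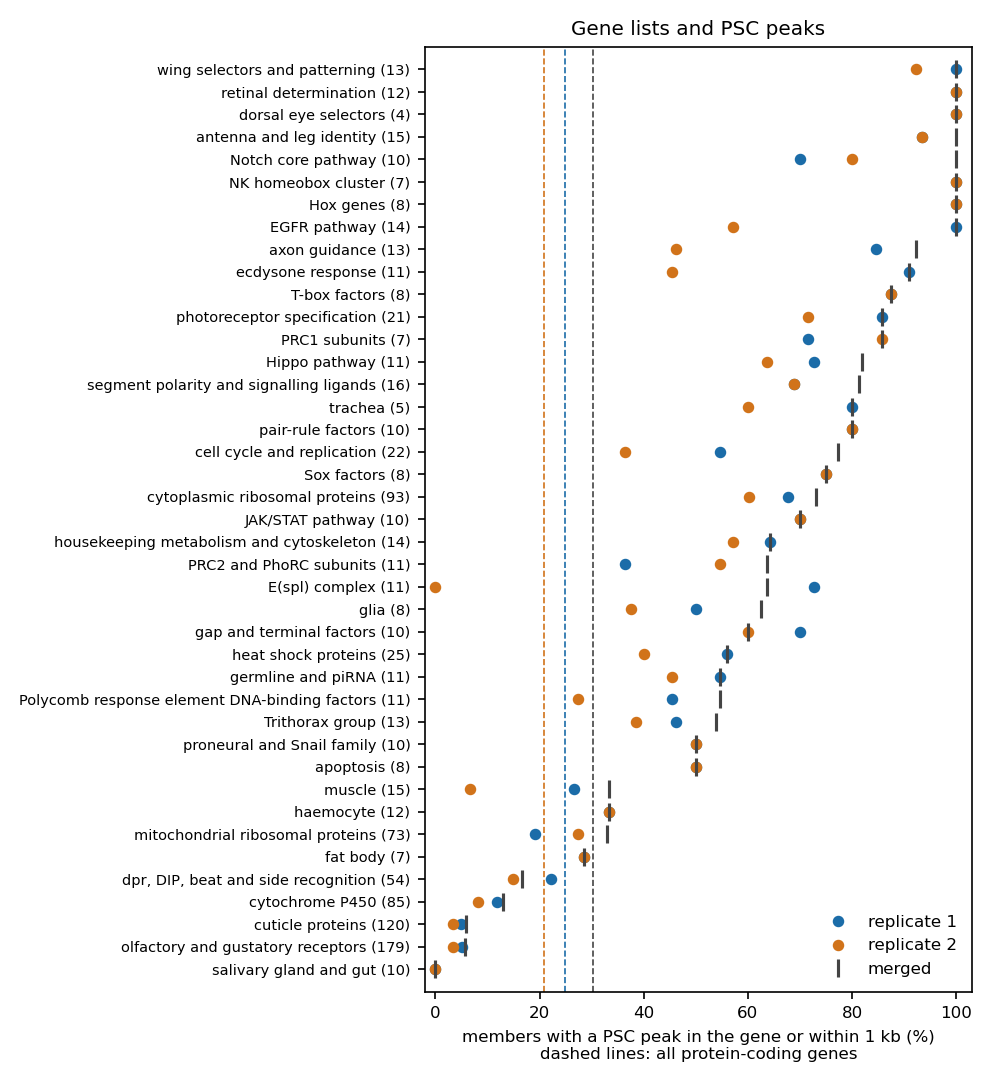
Share (%) of the members of each of 41 gene lists with a PSC peak in the gene or within 1 kb, in replicate 1, replicate 2 and the merged list, with list sizes in brackets and dashed lines at the shares over all protein-coding genes (24.9%, 20.9% and 30.3%). Hox, retinal determination and dorsal eye genes sit at 100% in both replicates, and the E(spl) complex has 8 of 11 genes in replicate 1 and 0 in replicate 2.

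Peak density differed between arms in both replicates in the same way for chromosome 4. That small, largely heterochromatic chromosome had 118 peaks per Mb in replicate 1 and 76.3 in replicate 2, and 136.8 in the merged list, with 7.89% of its length covered up to the last gene. The other 5 arms had between 33.6 and 48.0 peaks per Mb in replicate 1 and between 19.96 and 27.1 in replicate 2. The X had the lowest density in replicate 1, while 3L had it in replicate 2.

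PSC gave more and wider peaks than Su(z)12 in both replicates. The number of peaks was 5471 and 3215 for PSC (mean 4343 ± 1595, SD, n = 2) and 1434 and 1196 for Su(z)12 (1315 ± 168), a difference of 3028. Median width was 335 and 314 bp for PSC and 285 and 277 bp for Su(z)12, a difference of 43.5 bp. Covered length was 2.61 and 1.42 Mb for PSC and 0.606 and 0.489 Mb for Su(z)12, a difference of 1.47 Mb. The groups did not overlap in any of these measures. An exact permutation test over the 4 samples (two-sided) gave p = 0.333 for each, which is the smallest p that 2 against 2 samples allow, so no call was possible. Differences between antibodies and in sequencing depth cannot be told apart from differences in binding.

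Genes with the most PSC coverage had a larger share called higher in the Pc mutant than the rest, in the authors' deposited table. In bulk discs, fewer cells of a type and less RNA per cell cannot be told apart. At an adjusted p under 0.05, 3.64% of 11297 tested genes were called higher and 6.24% lower in the authors' deposited table for the Pc mutant. Among genes with no PSC peak these shares were 3.06% and 5.52%, and among the 3958 tested genes with a merged peak 4.65% (184) and 7.63% (302) in the authors' deposited table. Binding as such thus went with shares close to the background. By covered length in the merged list, the share called higher in the authors' deposited table for Pc was 3.52% below 500 bp, 5.10% from 500 to 1999 bp, 12.0% from 2000 to 4999 bp and 32.6% (15 of 46) from 5000 bp. The share called lower was 6.495%, 8.77%, 16.5% and 13.0% along the same classes in the authors' deposited table for Pc. Median gene length rose along these 4 classes from 3.27 to 34.7 kb. The median mean count in the authors' deposited table for Pc was 259 without a peak and 1204, 2499, 1500 and 1617 along these classes. The part of length and of count in the calls was not tested.

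In the authors' deposited table for ph RNA interference, the background was 31.1% higher and 34.9% lower of 11009 tested genes. The share called higher in the authors' deposited table for ph was 28.7% without a PSC peak, 37.3% below 500 bp, 31.1% and 32.6% in the next classes, and 23 of 46 genes in the class of most coverage. The share called lower in the authors' deposited table for ph was 31.2% without a peak and 36.5% below 500 bp. It was 50.4%, 56.1% and 43.5% in the 3 classes from 500 bp up, in the authors' deposited table for ph. The 46 genes with at least 5000 bp covered thus stood above the background in both directions and both comparisons, a description with no test of the class.

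The 20 most covered genes moved in both directions. Of them 16 were tested in the authors' deposited tables, with 7 higher and 2 lower in the Pc mutant and 10 higher and 4 lower with ph RNA interference. Abd-B rose by a log2 fold change of 7.80 ± 0.38 (± SE; DESeq2 adjusted p = 8.35e-92) in the Pc mutant and by 8.99 ± 0.16 with ph RNA interference in the authors' deposited tables. The JAK/STAT-linked zinc finger gene chinmo rose by 1.05 ± 0.19 and 2.99 ± 0.09 (adjusted p = 2.22e-06 and 3.82e-237), and dsx by 0.70 ± 0.23 and 1.55 ± 0.09 (adjusted p = 0.0264 and 4.07e-72), in the authors' deposited tables. The genes bi, lbl and tup had values of -0.13, -0.09 and 0.24 in the Pc mutant that did not pass the test, and rose by 0.95, 1.74 and 1.51 with ph RNA interference in the authors' deposited tables. The gene hth had -0.14 ± 0.11 in the Pc mutant (adjusted p = 0.605) and fell by 1.94 ± 0.09 with ph RNA interference in the authors' deposited tables. Among these genes ey and pnt fell in both, ey by 0.86 ± 0.18 and 2.40 ± 0.12 and pnt by 0.73 ± 0.13 and 0.53 ± 0.05, in the authors' deposited tables.

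At ph-p, the PRC1 gene with the widest domain, the value was -0.22 ± 0.14 in the Pc mutant (adjusted p = 0.425) in the authors' deposited table. In the authors' deposited table for ph, where ph is itself the target of the RNA interference, ph-p fell by 0.80 ± 0.04 with an adjusted p of 1.11e-88. Su(z)2, with a domain of 4603 bp, rose by 1.94 ± 0.23 and 3.51 ± 0.09 in the authors' deposited tables. Psc had 0.20 ± 0.16 in the Pc mutant (adjusted p = 0.568) and rose by 1.59 ± 0.07 with ph RNA interference (adjusted p = 1.53e-118) in the authors' deposited tables. Of the 12 retinal determination genes, all bound in each replicate, 8 were lower and 1 (tsh) higher in the Pc mutant, and 10 lower and 1 (Optix) higher with ph RNA interference, in the authors' deposited tables. Of the 8 Hox genes, likewise all bound, 6 were higher and 0 lower in the Pc mutant, and 6 higher and 2 (lab and Dfd) lower with ph RNA interference, in the authors' deposited tables. PSC peaks in each replicate were thus found at genes that rose and at genes that fell.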

How the data were processed

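PSC peak lists of eye discs were read per replicate and merged, and peaks outside the 6 arms were left out. Per the submitters' processing notes the build was dm6 and the tools were Bowtie2, SAMtools and MACS2 2.1.1.20160309 for ChIP-seq, and STAR, HTSeq and DESeq2 1.22.1 for RNA-seq. Settings, the control library and read numbers were not given in the sources used here. Per the series' design text merged files hold all replicates; whether reads or peaks were merged was not stated. The authors' deposited score is 10 times their −log10 q, and the deposited fold of a peak is a ratio over local background. The authors' deposited −log10 q values, log2 fold changes, p-values and mean normalized counts (a signal without depth) were used as given. Per the labels, fragments were about 300 bp.

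Overlap meant 1 shared bp. Genes were the 17684 of the Release 6 table on the arms, without strand, 13922 of them protein-coding, each with 1000 bp on either side. Clusters were at least 5 peaks at gaps of at most 5000 bp. Intervals are 95% Wilson intervals. Overlap, coverage and clustering were tested on simulated intervals. Genes named were the 20 most covered, those at the 10 widest and strongest peaks and the 10 largest clusters, all Hox and PRC1 genes and up to 4 leading members of each of 41 lists (982 genes); genes outside this rule were named after their values were seen. Members and lists were chosen with earlier results of these data known. Replicate numbers only name samples and were not shown to pair PSC with Su(z)12. Motifs in promoters were not analysed here. Python 3.11.15, pandas 2.3.3, numpy 2.4.6 and scipy 1.17.1 were used.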

Additional observations from a re-analysis of the deposited data

Results flagged for a closer look

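The merged PSC list held 5 peaks outside the 6 chromosome arms, in sequence that the comparisons did not use: 3 on the Y and 2 on the mitochondrial genome. Replicate 1 had 4 such peaks (3 and 1) and replicate 2 had 1, on the Y. The merged Su(z)12 list had 4. No control list was used here, so whether these peaks exceed a control was not tested.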

How the results depend on the processing

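Under other settings 87 values stayed within 1.5 times the main count or the spread between replicates, 43 moved, and none changed direction. Leaving out 1 replicate gave 3215 to 5471 peaks, 1.42 to 2.61 Mb covered, 63 to 191 clusters, 0 to 8 E(spl), 8 to 14 EGFR and 4 to 6 cuticle genes bound, 53.7% to 63.6% of summits near a gene end and 14.4% to 16.4% far from one. In the authors' deposited tables the calls among bound genes then ranged from 4.61% to 5.43% higher and 6.84% to 8.82% lower (Pc), and from 32.9% to 37.2% higher and 40.2% to 45.7% lower (ph). Merged peaks with a fold of at least 2 gave 2849 peaks, a median width of 378 bp and 1.69 Mb, and 0 E(spl) and 6 EGFR genes; a −log10 q of at least 10 gave 361 bp.

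The share of replicate 2 found in replicate 1 was 70.1% with 50% reciprocal overlap, 78.8% with summits within 250 bp, 87.7% at a −log10 q of at least 10 and 72.7% with equally many strongest peaks; that of replicate 1 was 41.2%, 46.3%, 63.2% and 68.1%. A gap of 1000 bp gave 79 clusters. Merged peaks found in both replicates gave 38 clusters, 2342 genes bound, and 0 E(spl), 7 EGFR and 4 cuticle genes; the gene body alone gave 2 cuticle genes. Replicate 1 at the length of replicate 2, an alternative chosen after seeing the data, gave 2575 genes. Summits near a gene end were 47.6% within 500 bp and 65.8% within 2000 bp, and those far from one 19.95% and 12.0%. At an adjusted p under 0.01 the authors' deposited tables called 2.96% higher and 5.36% lower (Pc), and 33.3% and 38.6% (ph). The causes were not tested. With the replicate block the differences from Su(z)12 were the same 3028 peaks, 43.5 bp and 1.47 Mb, with an exact sign-flip p = 0.5, the smallest that 2 pairs allow; the samples share only a number. The motif search and its alternatives were not run. Peak lists without read counts limit every statement on weak peaks.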
